A study of Tulipa gesneriana with 15 samples.

Results

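Of 76388 genes measured in garden tulip (Tulipa gesneriana) flowers, 150 were taken for being low from bud to full bloom, high at the onset of senescence and still high late in it. The level at a stage was the mean of log2(FPKM + 1) over its 3 libraries, where FPKM counts fragments relative to a gene's length and to the size of the library. Genes needed a mean of 5 FPKM or more in early and in late senescence, which 16921 genes had. Each was given a score, the lower of its 2 senescent levels minus the highest of its 3 earlier levels, and the 150 highest scores were kept. The level values of all 5 stages therefore chose the members, and the rise into senescence is given here as a description with no test.

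Whole flowers of wild-type (WT) plants were sequenced as total RNA at 5 stages, namely the bud, the partly and the fully open flower, and the flower early and late in its senescence. Each stage had 3 libraries, 15 in all. The labels name no cultivar, treatment or flower age. Whether the 3 libraries of a stage are separate plants is not in the labels either, so a p-value here covers the spread among those libraries alone, and that spread may be technical.

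Petal senescence is an active programme: cells take apart proteins, membranes, nucleic acids and sugars and send the products to other parts of the plant. Genes known for it in other plants code for proteases, nucleases, lipid-degrading enzymes, transporters and transcription factors. In some species ethylene sets the programme off, and in others it runs largely without it. The table pairs none of its identifiers with a gene name, function or position, so no member can be placed in such a group here. Only the 2 members with the highest score are given by identifier, and the others by their rank in the list. Some identifiers may stand for copies or transcripts of the same gene, which is not stated, so members need not be independent.

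The libraries held summed FPKM from 861035 to 1094997, with the 3 late senescence libraries highest, at 1016148 or more. Their read depth is unknown. Full blooming replicate 3 stood apart over all genes: it was the highest of its stage for 55.3% of the 47326 genes tested, against 19.5% and 23.7% for replicates 1 and 2. Whole flowers hold several organs, and in such bulk samples fewer cells of a type and less RNA per cell cannot be told apart.

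Most members were low before senescence and well expressed after its onset. Their median level was 0.662 FPKM in buds, 0.748 at partial and 1.06 at full blooming. It was 78.3 FPKM in early and 85.7 in late senescence. Stage means ran from 13.4 to 2051 FPKM in early senescence and reached from 14.3 to 2368 later. At 100 FPKM or more there were 64 members in early and 68 in late senescence, against 1 in buds, 0 in partial blooming and 2 in full blooming.

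As a share of all expression, the list made up 0.0647% ± 0.0130 (SD, n = 3) of summed FPKM in buds and 0.0609% ± 0.0161 in partial blooming. In full blooming the share was 0.0996% ± 0.0190. It was 2.61% ± 0.243 in early and 3.13% ± 0.825 in late senescence. The spread in late senescence came from libraries at 3.94%, 2.29% and 3.18%.

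**Figure D1:**
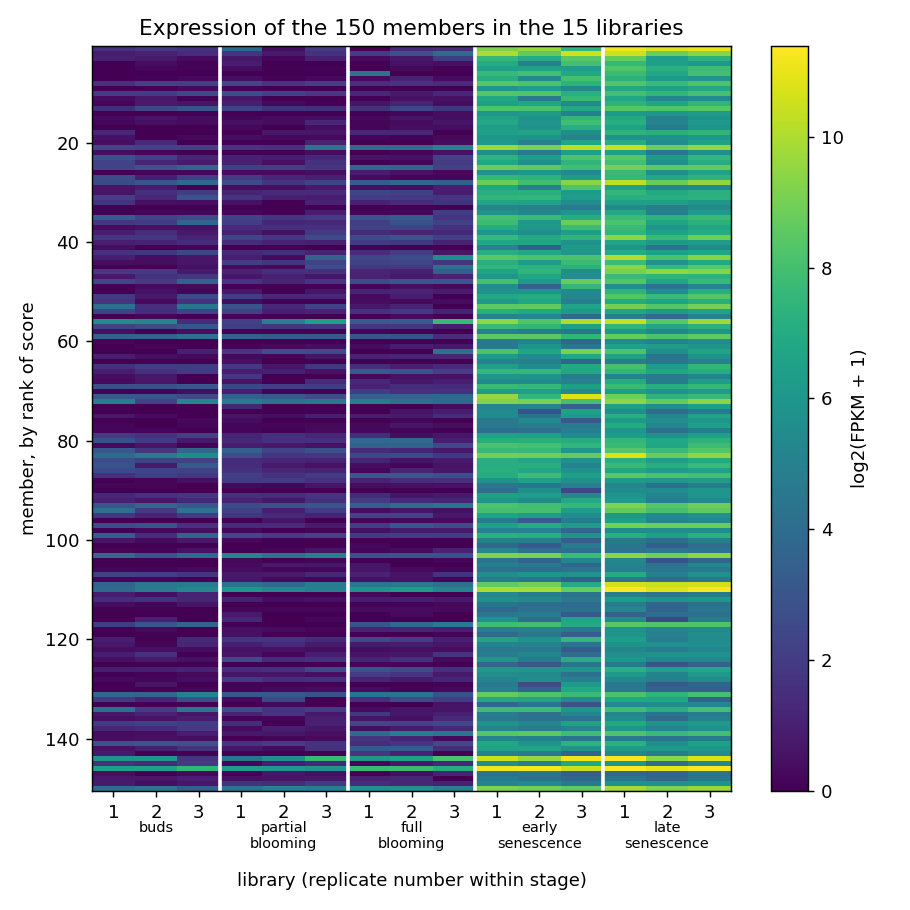
Each row is 1 of the 150 members, by rank of score, and each column 1 of the 15 libraries; colour is log2(FPKM + 1). The 9 libraries before senescence are dark in most rows, and the 6 senescent libraries are bright down to the last member, with some rows uneven across the replicates of a stage.

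The label of the list held library by library. In all 150 members each of the 6 senescent libraries lay above each of the 9 earlier ones, which was so for 6.76% of all genes tested. The rule used this contrast, so nothing is read from the count. The gap between the lowest senescent and the highest earlier library had a median of 3.09 on the log2(FPKM + 1) scale. It was smallest, at 0.62, in the member ranked 56, where full blooming replicate 3 was at 202 FPKM and the lowest senescent library at 312.

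Scores ran from 6.73 to 3.42, with a median of 4.26, or 19.2-fold on the FPKM + 1 scale. No step in score marked the end of the list. The last member scored 3.416, with earlier libraries from 9.15 to 56.4 FPKM and senescent ones from 377 to 911. The first gene left out scored 3.411, with earlier libraries from 1.31 to 41.1 FPKM and senescent ones from 126 to 478. Of the 16921 genes past the level floor, 4884 had a score above 0 and 1179 a score above 1.

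Scores read in libraries that had no part in the choice were also high. The rule was applied to 2 replicates of each stage and the score was read in the other. With replicate 3 held out, 149 of the 150 genes chosen scored above 0 there and 101 above 3, against 28.3% and 0.952% of the 16696 genes past the floor. The median score of the chosen genes was 4.35 in the replicates used and 3.49 in the held-out replicate. With replicate 1 held out, 150 genes scored above 0 and 141 above 3, against 28.14% and 1.476% of the genes past the floor. With replicate 2 held out, 149 and 116 did, against 20.92% and 1.181%. Held-out medians were 4.32 and 3.85, against -0.47 and -0.60 over all genes past the floor. The libraries of a held-out replicate share only a number, and between 125 and 136 of the genes chosen in this way were members of the list. These scores describe the genes so chosen and do not test the list itself, which all 15 libraries chose.

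**Figure D2:**
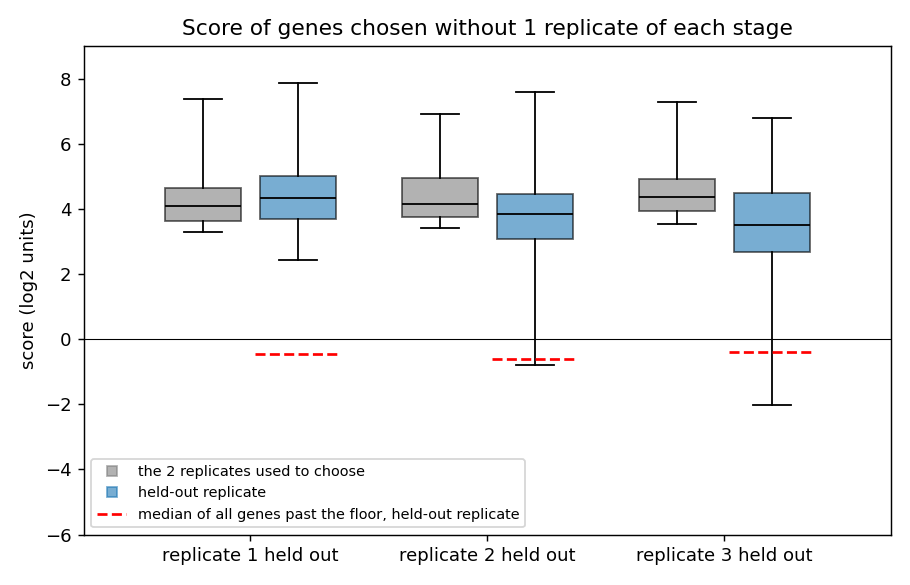
Box plots of the score, in log2 units, of the 150 genes chosen from 2 replicates of each stage, in those replicates (grey) and in the held-out replicate (blue); boxes span the quartiles, whiskers reach the extremes, and the dashed line is the held-out median of all genes past the floor. The blue boxes stay well above 0, with medians of 4.32, 3.85 and 3.49.

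The 2 highest-scoring members took different courses within senescence. The 3 bud libraries held F01.PB322 at 2.18, 3.07 and 2.17 FPKM, those of partial blooming at 12.9, 0.31 and 2.70, and those of full blooming at 0, 1.56 and 2.03. In early senescence its libraries were at 573, 773 and 182 FPKM, and in late senescence at 2235, 1781 and 2110. All late libraries lay above all early ones, and early replicate 3 was well below the other 2 libraries of its stage.

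Between early and late senescence F01.PB322 rose by 2.23 ± 0.72 (SE) on the log2(FPKM + 1) scale, with a limma adjusted p of 0.0344. That call was narrow: over 27 alternative settings the adjusted p ran from 0.00421 to 0.185, and it stayed under 0.05 in 17 of them. Among those in which it did not, it was 0.145 without early senescence replicate 3, 0.0557 without early replicate 1, and 0.0834, 0.0705 and 0.0772 without late replicates 1, 2 and 3.

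F01.PB375 was at 0.90, 1.08 and 1.71 FPKM in buds and at 2.26, 0.78 and 2.14 in partial blooming. It was at 3.30, 5.98 and 15.4 in full blooming, above all 3 bud libraries. Its early senescence libraries were at 1005, 394 and 1503 FPKM and its late ones at 1524, 457 and 662, so that the stages overlapped and replicate 2 was the lowest in both.

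From early to late senescence the log2 change of F01.PB375 was -0.12 ± 0.57 (SE; limma adjusted p = 0.890). From buds to full blooming it rose by 1.84 ± 0.57 (SE), with a limma adjusted p of 0.0342. This call too was narrow, with adjusted p from 0.0179 to 0.174 over 27 settings and 17 of them under 0.05. It was 0.0972, 0.0860 and 0.0510 without bud replicates 1, 2 and 3, and 0.0756 and 0.0916 without full blooming replicates 2 and 3.

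In late senescence 5 members reached 1000 FPKM or more, F01.PB322 and the members ranked 109, 110, 144 and 146, and the last 4 of these were already expressed before senescence. The member ranked 146 was at 86.8, 94.5 and 182 FPKM in buds, at 75.5, 66.0 and 58.4 in partial blooming and at 212, 217 and 131 in full blooming. It reached 2293, 2491 and 1369 FPKM in early and 2553, 2007 and 2543 in late senescence. Early replicate 3 was again the lowest senescent library.

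The member ranked 110 was at 13.7, 25.7 and 38.3 FPKM in buds and 55.8, 72.9 and 35.5 in full blooming. Its early senescence libraries held 1023, 963 and 427 FPKM, and its late ones 2684, 1795 and 2467, all above the early ones. It rose between these stages by 1.61 ± 0.43 (SE) on the log2 scale (limma adjusted p = 0.0144).

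**Figure D3:**
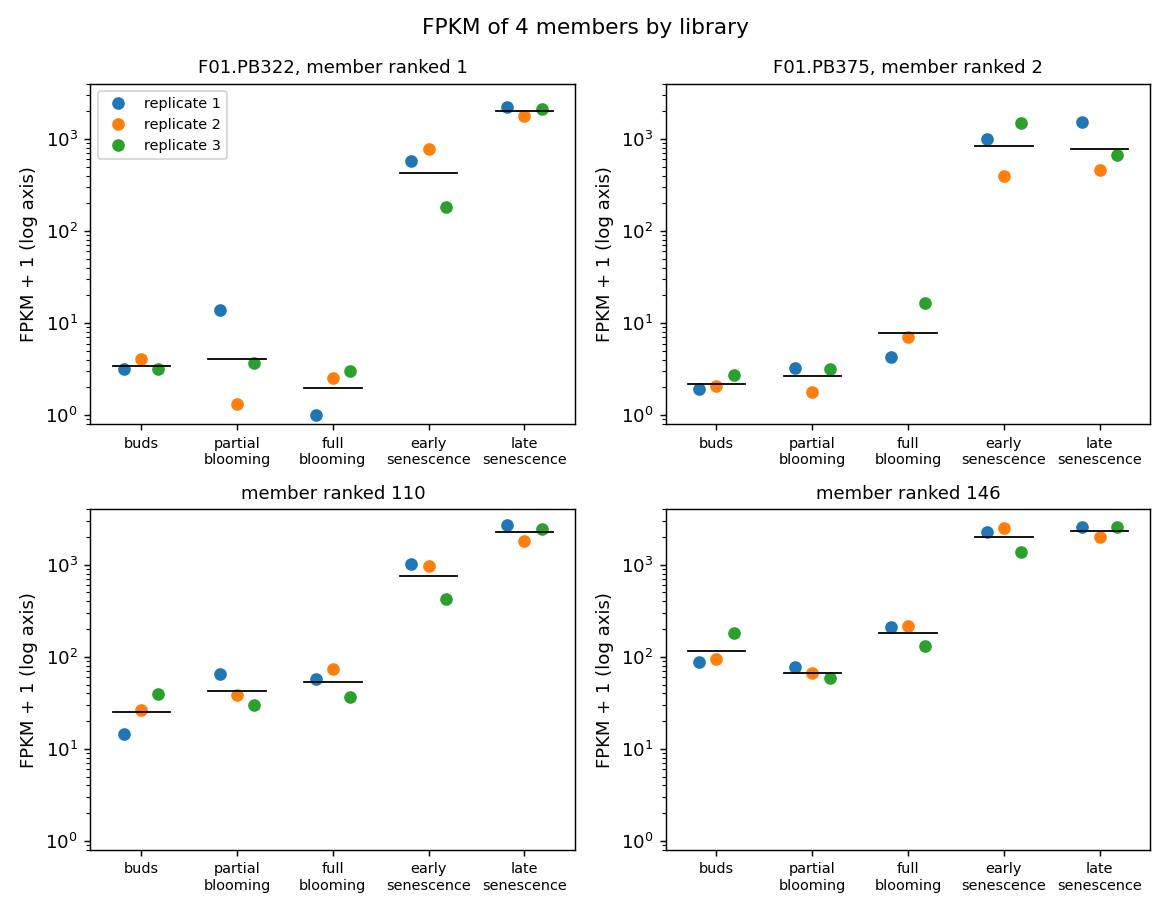
FPKM + 1 on a log axis in each library of F01.PB322, F01.PB375 and the members ranked 110 and 146, coloured by replicate number; black bars mark the mean on the log scale (n = 3). Every senescent point lies above every earlier point, and early senescence replicate 3 is the lowest of its stage in 3 of the panels and the highest in F01.PB375.

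Before senescence the members differed widely in level. The highest of the 3 earlier stage means was under 1 FPKM in 56 members, from 1 to under 5 in 51, from 5 to under 50 in 39, and 50 or more in 4. No earlier library was listed at 0 in 86 members. At the other end, 23 members were at 0 in 5 or more of the 9 earlier libraries. In the member ranked 6, for example, 8 earlier libraries were listed at 0, full blooming replicate 1 was at 20.6 FPKM, and the senescent libraries ran from 108 to 255. Such a 0 may stand for an estimate that failed. Senescent libraries at 0 occurred in 0 members.

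The stage with the highest earlier mean was full blooming in 77 members, buds in 45 and partial blooming in 28. In 29 members the mean was higher at each of the 4 steps from bud to late senescence. Differences among the 3 earlier stages are not what the score measures, although it uses the highest of them, and they were tested with limma over all 15 libraries and all 47326 genes. All 150 members passed the filter for that test, but 84 would have passed it on their earlier libraries alone. The other members had fewer than 3 earlier libraries at 1 FPKM or more.

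From buds to full blooming, 18 members rose and 14 fell (limma, adjusted p under 0.05), or 12% and 9.33%. Over all genes tested the shares were 9.27% higher and 13.2% lower. Since 66 members passed the filter only through senescent libraries, nothing is read from these shares beside those of all genes, here or at the single steps of blooming. On the log2 scale the members' median change was 0.16, and that of all genes -0.16. With median-ratio scaling these medians were 0.23 and -0.01, and 19 members rose and 9 fell (12.7% and 6%, against 11.7% and 9.87% of all genes). With quantile normalization 21 rose and 8 fell (14% and 5.33%, against 11.9% and 10.2%).

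The largest of these rises began after partial blooming. The member ranked 139 was at 0.31, 0.32 and 0.90 FPKM in buds, at 0.71, 0.64 and 0.38 in partial blooming, and at 15.2, 28.9 and 20.9 in full blooming. It went on to 337, 368 and 240 FPKM in early and 306, 204 and 249 in late senescence. Its rise from buds to full blooming was 3.89 ± 0.25 (SE) on the log2 scale, with a limma adjusted p of 2.26e-07. The member ranked 81 had a similar course, at 0.17, 0.50 and 0.07 FPKM in buds and 10.6, 11.2 and 4.64 in full blooming (rise of 2.91 ± 0.32 (SE), limma adjusted p = 4.02e-05). In both members the full blooming libraries lay above all libraries of the stages before.

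The largest falls were in members that were expressed in buds, at their lowest in full blooming and high in senescence. The member ranked 134 was at 18.8, 3.12 and 23.4 FPKM in buds, at 5.5, 2.37 and 3.19 in partial blooming and at 0.29, 0.54 and 0.58 in full blooming. Its senescent libraries were at 221, 224 and 63.8 FPKM in the early and 229, 146 and 252 in the late stage. From buds to full blooming it fell by 3.10 ± 0.61 (SE) on the log2 scale (limma adjusted p = 0.00281). Of the 14 members that fell, 8 had bud replicate 2 as the lowest bud library, and in 6 of these it was under 50% of each other bud library.

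Single libraries moved these counts, and the shares of all genes tested with them. Of rising and falling members there were 9 and 9 without bud replicate 1, or 6% each, against 7.64% and 8.81% of all genes. Without full blooming replicate 2 there were 11 and 9, or 7.33% and 6%, against 6.6% and 7.11%. Rising members numbered 9 without bud replicate 2 (6%, against 8.13% of all genes) and 11 without full blooming replicate 1 (7.33%, against 6.59%). Falling members numbered 7 without bud replicate 3 (4.67%, against 11.8%).

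Over the single steps of blooming fewer members were called. From buds to partial blooming 5 rose and 5 fell, 3.33% each, against 6.62% and 7.69% of all genes tested. With median-ratio scaling these were 5 and 3 members (7.21% and 6.3% of all genes), and with quantile normalization 5 and 2 (8.45% and 6.78%). From partial to full blooming 6 rose and 1 fell, 4.00% and 0.667%, against 0.980% and 0.699% of all genes. The members ranked 139, 81, 66, 117, 70 and 146 were those that rose at this second step. The member ranked 117 had fallen at the first, from 2.91, 7.02 and 12.1 FPKM in buds to 0, 0.03 and 0 in partial blooming, and was at 6.65, 14 and 24.5 in full blooming. Its changes were -2.88 ± 0.44 (SE; limma adjusted p = 0.000878) and 3.82 ± 0.44 (limma adjusted p = 0.000704).

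The 6 rises at the second step became 12 without full blooming replicate 3, 25 with library quality weights and 1 in a fit on these 2 stages alone. Over all genes tested the rising share moved with them, from 0.980% to 2.39%, 5.49% and 0.0887%. The single fall became 3 without early senescence replicate 3, which enters through the shared spread, while 0.645% of all genes tested fell. It became 0 without partial blooming replicate 1 or 3 and without full blooming replicate 1 or 2. In those fits 0.272% to 0.388% of all genes fell. At the first step 3 members rose without bud replicate 1 or 2, partial blooming replicate 1 or 3, full blooming replicate 1 or late senescence replicate 3. That is 2% of members, against 4.49% to 6.42% of all genes. Falls at that step numbered 9 without bud replicate 2 or full blooming replicate 3 and 10 without early senescence replicate 3. These were 6%, 6% and 6.67% of members, against 3.4%, 13.2% and 6.9% of all genes. Falls numbered 2 without bud replicate 1 or partial blooming replicate 2 or 3, and 3 without partial blooming replicate 1 or late senescence replicate 3. The shares of all genes were 4.51% to 5.91% for the former, and 3.34% and 7.01% for the latter.

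Between early and late senescence most members differed by less than a factor of 2. The rule ranks by the lower of these 2 stages, which favours genes high in both, so the size and the direction of these differences are a description of genes chosen in this way. The stage means differed by less than 1 log2 unit in 120 members, late senescence was higher by at least that in 25, and early senescence in 5. The median difference of the members was 0.22 on the log2 scale, close to the 0.19 of all genes tested. With median-ratio scaling it was -0.01, against 0.02 in all genes, and with quantile normalization 0.07 against -0.06. Late senescence had the higher mean in 103 members as deposited, in 75 with median-ratio scaling and in 80 with quantile normalization.

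In the test of late against early senescence, 29 members rose further and 0 fell (limma, adjusted p under 0.05). A fall lowers the score, so nothing is read from the absence of falls. The rising share, 19.3%, was near the 19.2% of all genes tested, while 9.9% of all genes fell. At an unadjusted p under 0.05, 39 members were higher and 1 was lower. Together these were 26.7% of members, against 41.1% of all genes tested. The rises that passed had a median of 1.38 on the log2 scale, and the smallest was 0.63. In 34 members all late libraries lay above all early ones, which was so for 34.1% of all genes tested, and in 0 members all lay below, against 16.2%.

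The largest further rise was in the member ranked 46. It was at 100.1, 176 and 47.9 FPKM in early and at 537, 724 and 616 in late senescence, with 9.97 FPKM or less in every earlier library. Its change was 2.70 ± 0.59 (SE; limma adjusted p = 0.00528). The smallest adjusted p, 0.000621, belonged to the member ranked 97, which went from 90.7, 133 and 68.2 FPKM to 521, 426 and 449, a rise of 2.29 ± 0.35 (SE; limma). In both, the libraries of the 2 stages did not overlap.

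At the other end, the member ranked 71 was at 801, 177 and 1779 FPKM in early and at 466, 164 and 211 in late senescence. Its change was -1.32 on the log2 scale (limma adjusted p = 0.130). Early replicate 2 lay within the range of the late libraries, and early replicate 3 was the highest library of all.

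**Figure D4:**
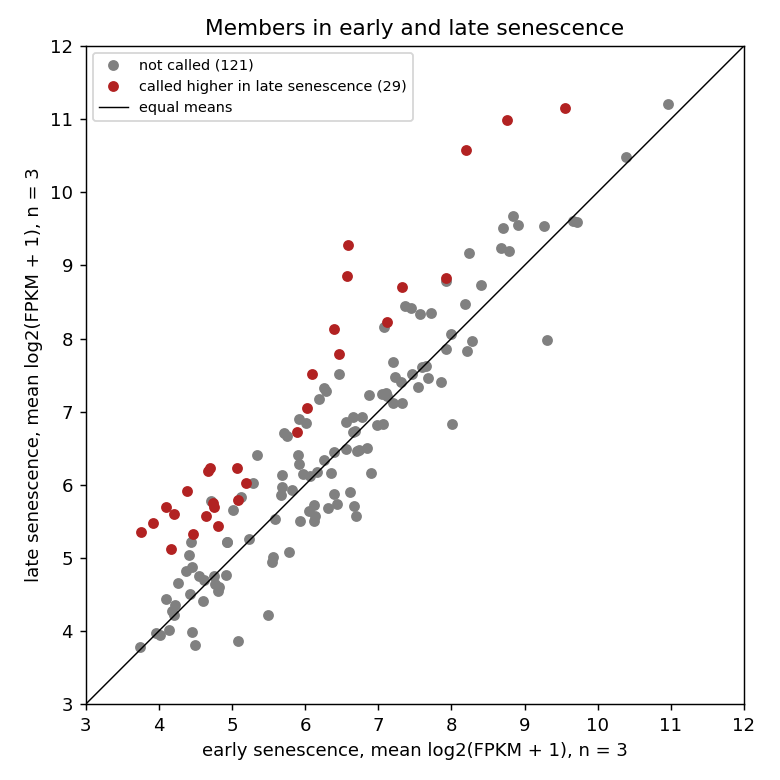
Mean log2(FPKM + 1) of each member in early (x axis) and late senescence (y axis), n = 3 libraries each; red points are the 29 members that passed the limma test and the line marks equal means. Most grey points lie close to the line, and the red points lie above it over the whole range of levels.

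Rises and falls in this comparison moved with single libraries and with scaling. There were 14 rises without early senescence replicate 3, 14 without late senescence replicate 1 and 16 without late replicate 3. The share of all genes that rose was 12.8%, 14.6% and 14.5% in these settings, and that of the members 9.33%, 9.33% and 10.7%. With median-ratio scaling 15 members rose (10%, against 14.2% of all genes). With a pseudocount of 0.1, 9 did (6%, against 17.7%). In other settings the share of the members was the higher. Without late replicate 2 there were 34 rises (22.7%, against 13.8%), and with a pseudocount of 5 there were 37 (24.7%, against 19.4%). The 2 shares were thus near each other as deposited but not in every setting. Without early senescence replicate 2 there were 6 falls (4%, against 7.67% of all genes), and without late replicate 1 there were 2 (1.33%, against 8.31%).

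The replicates of early senescence disagreed widely in these members. The median SD of log2(FPKM + 1) over the 3 early libraries was 0.68 in the members and 0.15 in all genes past the level floor. In late senescence these values were 0.40 and 0.23. Genes close to the members in score shared much of this spread: the 150 genes next in score were at 0.52 in early and 0.36 in late senescence, and the 1029 non-members with a score above 1 at 0.34 and 0.26. Before senescence the members and all genes past the floor lay closer together, at 0.29 and 0.23 in buds, 0.27 and 0.17 in partial blooming, and 0.30 and 0.27 in full blooming. At those stages 85, 82 and 71 members had a mean under 1 FPKM, where log2(FPKM + 1) narrows the spread. The earlier values of the members therefore cannot be set against those in senescence. Stage means set the score, and the differences between replicates of a stage did not enter it directly.

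The disagreement ran in 2 opposite directions. Early replicates 2 and 3 differed by at least 1 log2 unit in 94 members, or 62.7%, against 4.67% of all genes past the level floor. Replicate 2 was the higher in 52 of them and replicate 3 in 42. Among the 150 genes next in score the share was 46.7%, and among the 1029 non-members with a score above 1 it was 20.8%. Replicate 1 was the lowest early library in 5 members, replicate 2 in 51 and replicate 3 in 94, or 3.33%, 34% and 62.7%. Among all genes past the level floor these shares were 27.5%, 30.8% and 41.4%, so that of replicate 2 was near the background. Sorting members in this way was done after their values were seen, and the groups are described without a test.

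In the 94 members with early replicate 3 lowest, F01.PB322 among them, the median levels in early replicates 1, 2 and 3 were 91.7, 99.0 and 44.7 FPKM. Their late libraries had medians of 125, 85.1 and 101 FPKM. In the member ranked 90, the early libraries were at 16.7, 50.6 and 4.54 FPKM and the late ones at 43.8, 45.9 and 64.5. Of the 29 members that rose from early to late senescence, 24 were in this group. Without early replicate 3, 14 members rose.

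In the 51 members with early replicate 2 lowest, F01.PB375 among them, the early medians were 80.2, 41.1 and 143 FPKM. The late medians were 119, 37.6 and 69.0 FPKM. The member ranked 49 was at 47.8, 10.6 and 186 FPKM in early and 47.5, 19.2 and 33.8 in late senescence, the widest gap between early replicates 2 and 3 in the list. The member ranked 144 was at 1483, 737 and 2181 FPKM in early and 2530, 682 and 1703 in late senescence. In both members replicate 2 was the lowest library of each senescent stage. Of the 51 members, 3 rose from early to late senescence, and nothing is read from this count either.

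The groups also differed in the late libraries, which were not used to form them. In all 51 members with early replicate 2 lowest, late replicate 1 was the highest late library, and in 48 late replicate 2 was the lowest. Over all genes past the floor this was so for 37.7% and 59.2%. Late replicate 1 was over 2 times late replicate 2 in 45 of these 51 members and in 10 of the 94 with early replicate 3 lowest. Of the 5 members with early replicate 1 lowest, this was so in 4, and late replicate 1 was the highest late library in 5. Late replicates 1 and 3 differed by a median of 0.81 on the log2 scale in the 51 members and by 0.06 in the 94. Across the 150 members, the difference of early replicates 2 and 3 correlated at r = -0.67 with that of late replicates 1 and 3, against -0.04 across the 16921 genes past the floor. All points share the same 6 libraries, so these correlations are descriptions.

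Before senescence the shares rested largely on 2 members. The 51 members together held 0.0188%, 0.0224% and 0.0717% of the summed FPKM in full blooming replicates 1, 2 and 3, but the members ranked 56 and 144 carried most of the last value. Without these 2, the shares were 0.0106%, 0.0116% and 0.0185%. In partial blooming the shares were 0.0104%, 0.0139% and 0.0423% with them, and 0.00762%, 0.00532% and 0.0103% without. In buds replicate 3 held the least, at 0.00894% against 0.0182% and 0.0167%, and without these 2 members the bud shares were 0.00692%, 0.00662% and 0.00850%. Replicate 3 was the highest library in 26 of the 51 members in full blooming, in 24 in partial blooming and in 15 in buds. Over all genes tested it was the highest for 55.3%, 38.4% and 24.5%, and nothing is read from these counts. The 94 members held 0.0673%, 0.0684% and 0.0493% in full blooming and 0.0467%, 0.0328% and 0.0358% in partial blooming. In senescence the 51 members held 0.999%, 0.474% and 1.71% of the early libraries and 1.41%, 0.460% and 0.841% of the late ones. The 94 held 1.81%, 1.85% and 0.949%, then 2.49%, 1.81% and 2.31%. The labels give no harvest time, plant or organ share for a library, and their part in these differences was not tested.

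**Figure D5:**
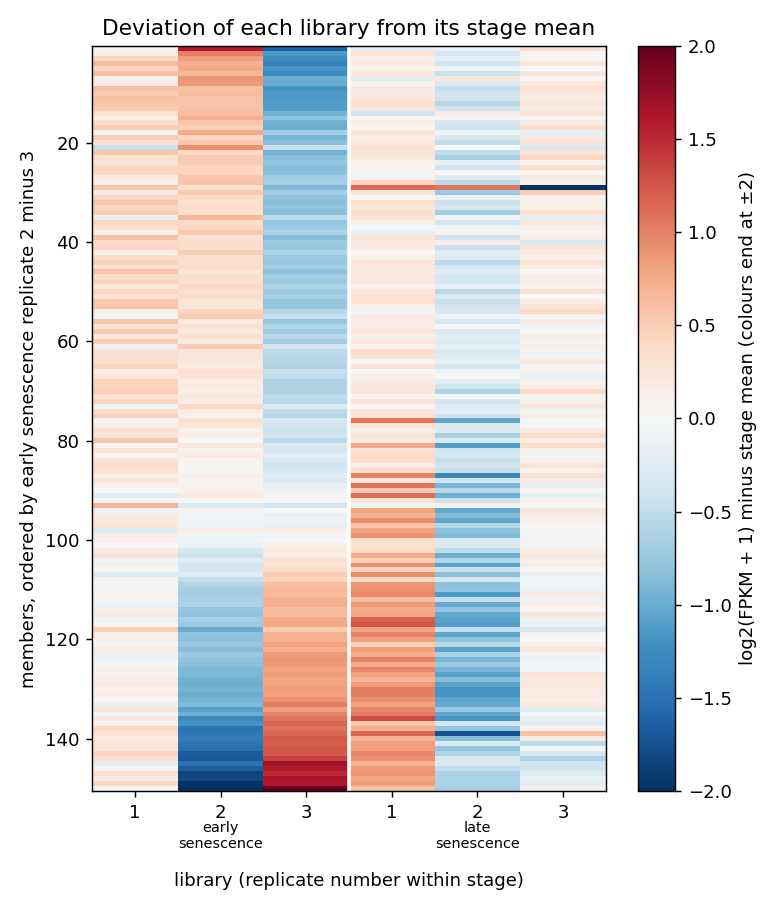
Log2(FPKM + 1) of each member in the 6 senescent libraries minus its stage mean, with members ordered by early senescence replicate 2 minus replicate 3. Members at the top are low in early replicate 3, and members at the bottom are low in early replicate 2 and, in late senescence, high in replicate 1 and low in replicate 2.

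Late replicate 2 was low across the list as a whole. It was the lowest late library in 132 of 150 members, or 88.0%, and late replicate 1 was the highest in 112, or 74.7%. Over all genes tested these shares were 46.4% and 31.2%, and over the genes past the level floor 59.2% and 37.7%. Late replicate 2 was thus often the lowest in other expressed genes too. The member ranked 132 was an exception, at 112, 106 and 10.4 FPKM, with late replicate 3 far below the others. Bud replicate 2 was the highest bud library in 39 members and the lowest in 41, or 26% and 27.3%. Over all genes tested these shares were 34.9% and 23.7%, so it was less often the highest in the members.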

How the data were processed

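The authors deposited 1 table of FPKM values for 76388 genes in 15 libraries, 3 for each of 5 stages; the unit is read from the table's name and values, which carry 2 decimals. The submitters' processing notes name DESeq 1.18.0, HTSeq 0.6.1, TopHat2 2.0.12 and Bowtie2 2.2.3, without saying what each did. The reference, its annotation and the filters were not given in the sources used here. Low FPKM values moved in small steps in some members, such as 0.05, 0.10 and 0.10 in buds in the member ranked 26. Read counts were not worked out from such steps, so the depth is not known and counting intervals are not given. Columns were matched to libraries by the codes in the labels.

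Values were tested as log2(FPKM + 1), which understates the change of low genes, with limma 3.58.1 in R 4.3.3 with a mean-variance trend over all 15 libraries. The 47326 genes at 1 FPKM or more in at least 3 libraries were tested, two-sided, with Benjamini-Hochberg adjustment over all of them. The script was tested on simulated data. Members, groups and lists were chosen with earlier results of these data known. The 2 members with the highest score are named; members given by rank were picked after their values were seen, and the planned naming of 2 called falls from early to late senescence found 0. Planned gene lists could not be matched without names. Alternatives were other pseudocounts, filters, scalings and level floors, a replicate block, library weights, no trend, 2-stage fits, and leaving out libraries.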

Additional observations from a re-analysis of the deposited data

How the results depend on the processing

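Membership depended on the pseudocount more than on any single library. Of the 150 members, 100 were shared with the list made with a pseudocount of 0.1, 116 with a pseudocount of 5, and from 133 to 147 with single libraries left out; 72 were in the list under all 23 settings, both named members included. Senescent libraries lay above the earlier ones in 150 members under both scalings; leaving out a library cannot change that order, and the rule chose for it. Recomputing gave 517 values, of which 439 held (the same call, a count within 1.5 times, or a score within the replicate SD), and for the other 78 the cause was not tested.

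For members called higher and lower, the values that moved were these, with the share of the members against that of all genes tested in brackets. With a pseudocount of 0.1, 9 were higher in late than in early senescence (6% against 17.7%). With it 9 were lower in partial blooming than in buds (6% against 6.07%) and 2 lower in full than in partial blooming (1.33% against 0.594%). With a pseudocount of 5, 1 was higher and 2 lower in partial blooming than in buds (0.667% against 6.29%, and 1.33% against 9.01%). With it 5 were higher and 4 lower in full blooming than in buds (3.33% against 8.81%, and 2.67% against 13.5%). With no filter 3 were higher and 3 lower in partial blooming than in buds (2% against 4.03%, and 2% against 4.59%). Median-ratio scaling gave 15 higher in late senescence (10% against 14.2%). It gave 3 lower in partial blooming (2% against 6.3%) and 9 in full blooming (6% against 9.87%) than in buds. Quantile normalization gave 2 and 8 for these falls (1.33% against 6.78%, and 5.33% against 10.2%). Fits on 2 stages gave 19 higher in late senescence (12.7% against 22.4%) and 8 lower in partial blooming than in buds (5.33% against 7.77%). In full against partial blooming they gave 1 higher and 0 lower (0.667% against 0.0887%, and 0% against 0.0697%). In full blooming against buds they gave 10 higher and 6 lower (6.67% against 4.99%, and 4% against 4.48%). Library quality weights gave 8 lower in partial blooming than in buds (5.33% against 13.3%). In full against partial blooming they gave 25 higher and 5 lower (16.7% against 5.49%, and 3.33% against 9.5%).

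With single libraries left out, higher and lower members ranged from 14 to 34 and from 0 to 6 in late against early senescence, from 3 to 7 and from 2 to 10 in partial blooming against buds, from 4 to 12 and from 0 to 3 in full against partial blooming, and from 9 to 23 and from 7 to 16 in full blooming against buds. Chosen after seeing the data, leaving out replicate 2 of both senescent stages gave 2 falls in late senescence, and leaving out bud replicate 2 and full blooming replicate 3 gave 11 falls in partial blooming and 12 rises in full against partial blooming.

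Replicate numbers did not pair the libraries: deviations of same-numbered libraries correlated from -0.37 to 0.37 over pairs of stages, and in early against late senescence 3 of 6 libraries correlated best with their own number. With the replicate block 27 members were higher in late than in early senescence, or 18% of members, against 18% of all genes tested. It gave 6 lower in partial blooming than in buds (4%, against 6.9%). The limma adjusted p of F01.PB322 for late against early senescence was 0.0513, and the other counts were as without the block.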
